A study of Mus musculus with 6 samples.

Results

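RNA recovered by AGO2-RIP from cultured mouse macrophages was compared between Dicer KO and Dicer WT cells. The measure was the signal of the KO AGO2-RIP array minus that of the WT AGO2-RIP array, gene by gene. A gene was measured where a probe for it lay well above background on both arrays, which held for 16434 of the 34746 genes named on the array design. No input or IgG array served as a reference in this comparison. AGO2-RIP is the precipitation of the Argonaute protein AGO2 with an antibody, followed by profiling of the RNA that comes down with it. The series holds 6 arrays, 1 for each of 2 genotypes in 3 RNA fractions, which were the AGO2-RIP, the IgG-RIP control and the input lysate.

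The WT group was LysM-Cre/Dicerwt/wt/Apoe-/- and the KO group LysM-Cre/Dicerflox/flox/Apoe-/-, so both groups carried the Cre transgene and lacked apolipoprotein E, and they differed in the Dicer alleles. LysM-Cre is Cre recombinase driven by the lysozyme M locus, which is active in myeloid cells, so Dicer loss is limited to cells in which the Cre acted. The mice were 6-8 weeks old and labelled male, and femoral marrow was cultured for 7 days with medium conditioned by L929 fibroblasts, which secrete the macrophage growth factor CSF1. Lysates were incubated with anti-AGO2 or IgG beads, and the recovered RNA was reverse transcribed and pre-amplified before Cy3 labelling. The number of mice behind each array was not given in the sources used here. With 1 array a group there is no replicate check and no test. Every difference below therefore compares 2 arrays, and its error covers the measurement of the spots only.

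Dicer is the nuclease that cuts hairpin precursors into mature miRNAs of about the length of a guide strand. Mature miRNAs are loaded into Argonaute proteins and lead them to target mRNAs, chiefly by pairing of the seed, bases 2 to 8 of the miRNA, with the 3' UTR. GW182 proteins (TNRC6) then bring deadenylases and decapping enzymes to the target. The let-7 family, which is abundant in differentiated cells, is known for targeting Hmga2, Lin28, Ras genes and cell cycle genes, and miR-142, miR-223 and miR-155 are known from blood cells and macrophages.

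The labelled sex did not match all arrays. Xist, the RNA that silences one X chromosome in females, passed the background on all 3 WT arrays and on 0 KO arrays, with a bound of at least 88.3-fold higher in WT AGO2-RIP. Ddx3y and Eif2s3y, which lie on the Y chromosome, were above background on 3 KO arrays and 0 WT arrays, with bounds of at least 21.6-fold and 3.96-fold. The Y-linked Sry went another way, since its probe was above background on all 6 arrays, with -0.13 in WT and 1.04 in KO AGO2-RIP and a difference of 0.07 in input. The 572 measured X-linked genes had a median difference of -0.02 and the 15663 autosomal genes one of -0.03. The KO arrays also lay in row 1 of the slide and the WT arrays in row 2, so that genotype, slide row and sex cannot be told apart in any value below. Lyz2, whose locus carries the Cre, was not well above background on the WT AGO2-RIP and WT input arrays and stood at 3.56 on KO AGO2-RIP, a bound of at least 72.3-fold. All levels are log2 values relative to the array's 75th percentile of signal, so that 0 is that percentile. The only Dicer1 probe, at mm9 chr12:105926064-105926123, read 0.93 in WT and 0.94 in KO AGO2-RIP and -0.77 for KO minus WT in input. It may lie outside the floxed part of the gene, and then it checks nothing about the deletion.

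Macrophage markers were present in both AGO2-RIP arrays. Of 10 listed, 9 were above background in WT and 10 in KO, with a summed signal of 1173 and 1054 times the 75th percentile. Their 9 differences had a median of -0.15, whose sign relative to the median of all genes changed with the processing. They included Csf1r, the CSF1 receptor (6.60 in WT, 5.88 in KO), the mannose receptor Mrc1 (5.43, 4.35) and the IgG receptor Fcgr1 (-1.42, -0.18). Of 10 neutrophil and progenitor markers, 4 were above background in WT and 2 in KO, with summed signals of 12.5 and 2.91. Mmp8, a neutrophil collagenase, read 3.49 in WT and 1.41 in KO, and S100a9, a calcium-binding protein of neutrophils, -0.41 and -2.03. Both were also lower in the KO input, by 0.92 and 1.42 log2 units. Between 1 and 3 markers each of B, T and NK, erythroid, stromal, dendritic, osteoclast, mast and megakaryocyte cells were above background. The dendritic markers had summed signals of 77.1 in WT and 93.0 in KO, with Siglech at 6.27 and 6.53. Each of the other groups had at most 3.16. In bulk samples fewer cells of a type and less RNA per cell cannot be told apart. The part of these cells in the differences was not tested.

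Of 26 miRNA families, let-7 and miR-142 had the highest shares of lower genes by seed match in the probes, as given below. Their mature sequences are shown with the seed in capitals, as listed by RefSeq for GRCm38.p6, with miR-30 as the family next to them in the share of lower genes and miR-155 and miR-223 as myeloid miRNAs.
let-7a-5p: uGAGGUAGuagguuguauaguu
miR-142a-3p: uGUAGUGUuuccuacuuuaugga
miR-30a-5p: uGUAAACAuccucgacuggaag
miR-155-5p: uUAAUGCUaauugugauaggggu
miR-223-3p: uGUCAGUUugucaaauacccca
The let-7 seed is shared by 11 mature miRNAs of the family and the miR-30 seed by 4.

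The array's 60-base probes carry some of the matching sites themselves. The windows below are 29 bases of probe sequence in the sense of the transcript, with the match to the let-7 seed, CTACCTC, in capitals. Among genes with a RefSeq symbol, Aven, Glmn, Pced1b and Lamtor4 are the lowest whose own measured probe holds the match. Hmga2, the textbook target, has it in its dimmer probe, and Cyp2r1 and Cracr2b are shown for contrast from the high end.
Aven, chr2:112471168-112471227, plus strand: gcagccaacacCTACCTCtgtgtttgatg
Glmn, chr5:107978084-107978143, minus strand: caaatcaaagtCTACCTCtgaagaaaatg
Pced1b, chr15:97216042-97216101, plus strand: aagcattcttaCTACCTCccccttgctat
Lamtor4, chr5:138700431-138700490, plus strand: ggagttgggcttgtgctcaCTACCTCctt
Hmga2, chr10:119798739-119798798, minus strand: tcaaaacacactaCTACCTCttaagtccc
Cyp2r1, chr7:121693769-121693828, minus strand: caaccccagccCTACCTCatctgtgcaga
Cracr2b, chr7:148648964-148649023, minus strand: atagagagattCTACCTCaaaacaaaaaa
Coordinates are those of the probes in mm9, as the array files give them. KO minus WT in AGO2-RIP was -2.63 for Aven, an inhibitor of apoptosis, -1.72 for Glmn, -1.53 for Pced1b and -1.52 for Lamtor4, a subunit of the Ragulator complex on lysosomes. It was 1.41 for Cyp2r1, a vitamin D hydroxylase, and 2.14 for Cracr2b, so the same letters were found on both sides. In Hmga2 the let-7 match shares 1 base with a match to miR-142, shown next.

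Matches to the miR-142 seed, ACACTAC, are in capitals here. Among genes with a RefSeq symbol, Fabp4, Npy and Ufsp1 are the lowest with it in the measured probe and Kif22 the highest. The Npy probe spans an interval longer than its 60 bases.
Fabp4, chr3:10204452-10204511, minus strand: atttgcatcaaACACTACaatagtcagtc
Npy, chr6:49773743-49777505, plus strand: tccgctctgcgACACTACatcaatctcat
Ufsp1, chr5:137736545-137736604, plus strand: ACACTACtggggcactccaaaaaaccgtt
Hmga2, chr10:119798739-119798798, minus strand: acaatcaaaacACACTACtacctcttaag
Kif22, chr7:134171255-134171314, minus strand: cctcttgACACTACcttcttttaaaaatc
KO minus WT in AGO2-RIP was -2.41 for Fabp4, the fatty acid binding protein of macrophages and adipocytes, -1.87 for Npy, a neuropeptide, and -1.63 for Ufsp1, a protease of the UFM1 system. It was 0.98 for the kinesin Kif22. In input, KO minus WT was -1.56 for Fabp4 and -1.65 for Npy, so the lower AGO2-RIP signal of both came with a lower input signal.

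Across all 16434 genes the AGO2-RIP arrays were alike in most transcripts, and 81.9% of genes differed by less than 2-fold. KO was at least 2-fold higher for 1162 genes (7.07%) and at least 2-fold lower for 1810 genes (11.0%). Past 4-fold there were 134 higher and 152 lower genes. The median difference was -0.03 and the SD across genes 0.78 log2 units. For comparison, the SD of a difference between single spots of a probe, from probes spotted several times on the arrays, was 0.22. Of the 2-fold calls 39.1% were higher in KO. With each array centred on its median in place of its 75th percentile the median of all genes moved to -0.22 and the calls were 737 higher and 2674 lower, so that 21.6% were higher.

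**Figure D1:**
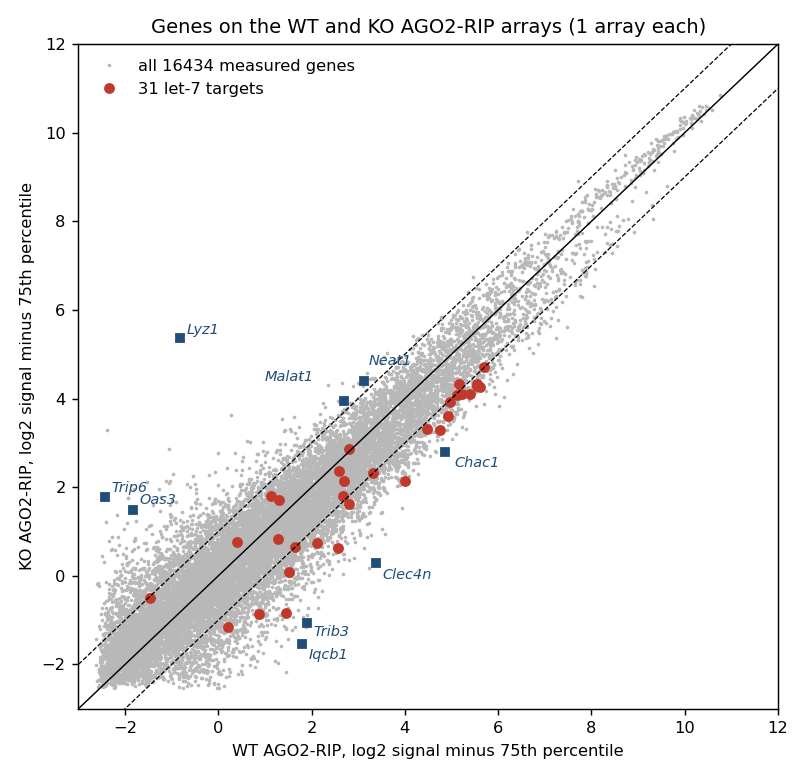
Log2 signal of each of 16434 genes on the KO AGO2-RIP array (vertical axis) against the WT AGO2-RIP array (horizontal axis), both relative to the array's 75th percentile, 1 array each, with lines at 2-fold. Most genes lie between the lines, 26 of the 31 let-7 targets (red) lie below the diagonal, and squares mark genes named in the text.

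The difference moved with the brightness of a gene. In 5 equal bins of genes by mean signal, from dim to bright, the median was 0.16, 0.09, -0.04, -0.20 and -0.19, and the share called higher was 9.67% in the dimmest and 1.40% in the brightest bin. It also moved with the GC content of the probe, from a median of -0.21 in the most AT-rich of 5 bins to 0.10 in the most GC-rich. The 10351 genes that carry a RefSeq symbol had a median of -0.17, with 5.69% higher and 14.5% lower, while the 6083 others had 0.15, 9.42% and 5.05%. A list of named, well expressed genes is therefore read against a median below that of all genes.

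The other fractions gave few of the same calls. In input, 14725 genes were measured, the SD across genes was 0.44, and 150 (1.02%) were higher and 259 (1.76%) lower in KO. In IgG-RIP, 15018 genes were measured, with an SD of 0.88, 1642 (10.9%) higher and 1349 (8.98%) lower, so the IgG arrays differed as widely as the AGO2-RIP arrays. Across genes, which are not independent replicates, the AGO2-RIP difference had r = 0.15 with the input difference (13936 genes) and r = -0.11 with the IgG difference (14180 genes). Of the 1666 genes that were lower in KO AGO2-RIP and measured in input, 58 (3.48%) were also lower in input and 18 were higher there. Of the 1368 that were measured in IgG-RIP, 170 were lower and 278 higher.

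Most listed targets of let-7 were lower in the KO AGO2-RIP. The list was chosen with earlier results of these data known, so its counts are a description and no independent check. Of 41 listed genes 31 were measured, of which 19 were at least 2-fold lower (against 11.0% of all genes), 0 were at least 2-fold higher and 26 lay below 0. The median was -1.14, where all genes of the members' signal bins had -0.14. In the other fractions the list's median lay above 0. It was 0.16 in input (28 measured, 0 lower and 3 higher) and 0.71 in IgG-RIP (24 measured, 1 lower and 6 higher). Among the members not measured were Lin28a, Lin28b, Igf2bp1, Igf2bp3, Fas, Dusp9, Il13, Mycn and Acvr1c.

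The chromatin protein genes stood among the let-7 members with high AGO2-RIP signal. Hmga2, an architectural protein of embryonic chromatin, read 5.55 in WT and 4.28 in KO, and both its probes gave -1.27, with 0.27 in input. Hmga1, its relative, read 5.40 and 4.09 (-1.31), with its probes spread from -1.80 to -0.07. The ARID transcription factors Arid3a (5.23 in WT, 4.09 in KO, -1.14 and -1.13 over its probes) and Arid3b (4.47, 3.32, -1.15) were lower in KO AGO2-RIP. They were higher in KO input, by 1.20 and 1.72. Arid3b had a further probe at -0.06, so its size depends on the probe.

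Cell cycle members came next. E2f6, a repressive E2F factor, read 2.57 in WT and 0.63 in KO (-1.94 ± 0.20 by the scanner software's error of the spots), and E2f5 0.87 and -0.87 (-1.74). Cdc34, a ubiquitin-conjugating enzyme of the SCF complex, read 5.13 and 4.07 (-1.06). The D-type cyclins lay at the threshold of 2-fold. Ccnd2 (1.65, 0.65) was counted as lower and Ccnd1 (5.70, 4.71), at -0.99, was not. Cdc25a, a phosphatase that activates cyclin-dependent kinases, read 2.67 and 1.80 (-0.87). Bach1, a repressor of heme oxygenase that is listed for miR-155 too, read 3.32 and 2.32 and fell just short of the threshold.

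Signalling and other members gave the lowest and the highest values. Nr6a1, an orphan nuclear receptor of germ cells, had the lowest of the list at 1.45 in WT and -0.83 in KO (-2.29 ± 0.22). Nme6, a nucleoside diphosphate kinase relative, read 3.99 and 2.13 (-1.86), and a further probe gave -0.91. Nras, a small GTPase, read 4.74 and 3.29 (-1.46), with 3 probes from -1.46 to -0.48. The phosphatase Dusp1 (5.61, 4.27) gave -1.34, the RNA-binding protein Rbms1 (4.92, 3.61) -1.31 and Plagl2 (4.97, 3.92), a zinc finger factor, -1.05, though another Plagl2 probe gave 0.43. Xkr8 (-1.44), Bcl7a (-1.36), Fignl2 (-1.36), Limd2 (-1.21) and Dna2 (-1.19) were also at least 2-fold lower, though the probes of Limd2 ran from -1.68 to 0.37. Tgfbr1, a TGF-beta receptor, was at -0.84 with 1.02 in input. Ddx19a (-0.56), Igf2bp2 (-0.46) and Imp3 (-0.21) lay below 0 within 2-fold. Map4k4 (0.06), Trim71 (0.36), Zfp322a (0.40) and Col1a2 (0.97) lay above it, so the list did not move as a whole.

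**Figure D2:**
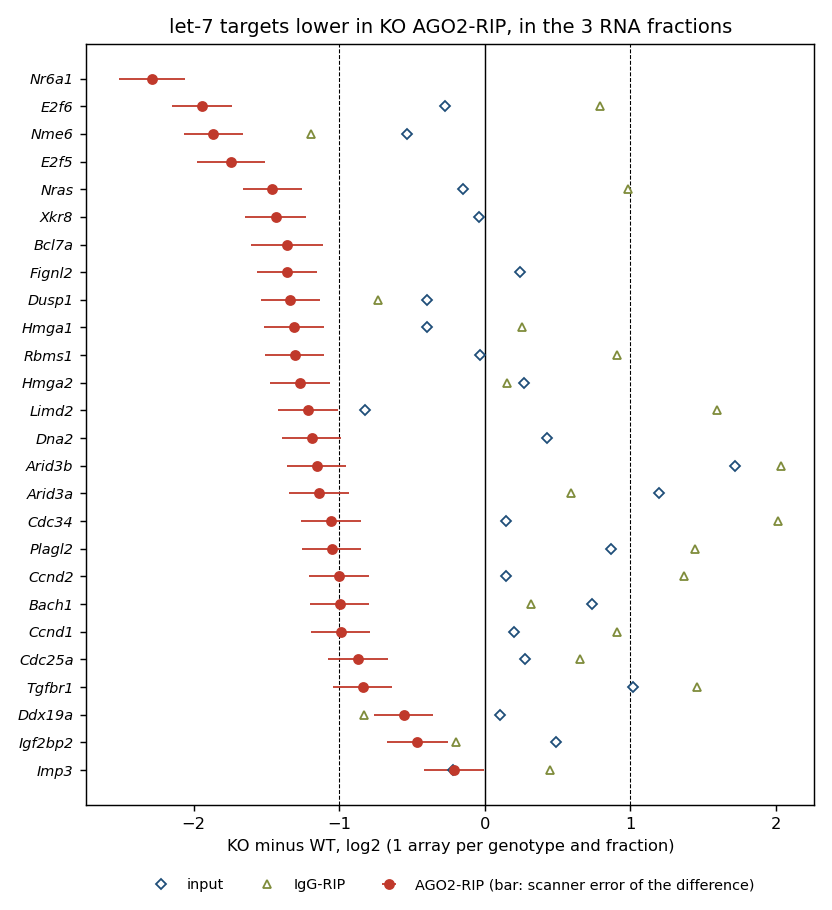
KO minus WT (log2, horizontal axis) in AGO2-RIP, input and IgG-RIP for the 26 let-7 list members below 0 in AGO2-RIP, 1 point per fraction and gene, bars being the scanner's error of the difference. The AGO2-RIP points run from -2.29 to -0.21, since members below 0 were drawn, while input and IgG points of the same genes lie on both sides.

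A description independent of target lists used the seed matches in the probes. Both strands of every probe were searched for 26 miRNA families, and a gene was counted where any of its probes held the match. A match to the let-7 seed, CTACCTC, stood in 0.367% of probes. Of the 113 measured genes with it, 25 (22.1%) were lower and 10 (8.85%) higher in KO AGO2-RIP, with a median of -0.04. Of the 80 genes with the reverse complement, 5.00% were lower. For miR-142, ACACTAC stood in 0.259% of probes, and 17 of 70 genes (24.3%) were lower and 3 higher, with a median of -0.52, against 14.1% of 92 genes on the reverse strand. For miR-30, TGTTTAC stood in 0.588% of probes, and 32 of 176 genes (18.2%) were lower against 8.63% on the reverse strand.

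The remaining families spread around the share of all genes. For miR-23, 17.0% of 212 genes were lower and 3.30% higher, and for miR-155 14.7% of 95 were lower and 16.8% higher. For miR-223 9.73% of 113 were lower and 11.5% higher, and for miR-10a 9.17% of 120 and 6.67%. For miR-342 6.88% of 160 were lower and 11.25% higher. For miR-146 11.4% of 176 were lower and 13.6% higher. Thus miR-155, miR-223, miR-342 and miR-146 had more higher than lower genes, where 7.07% of all genes were higher. Of the 26 families, 18 had a share above 11.0% with the match and 9 with its reverse complement, and 19 had a higher share with the match than with the reverse. The shares ran from 6.88% to 24.3% with the match (median 13.7%) and from 5.00% to 14.1% with the reverse (median 9.65%). A match is a description of the probe's letters. A gene whose site lies outside its probes was not counted, so these genes are a small part of the possible targets.

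**Figure D3:**
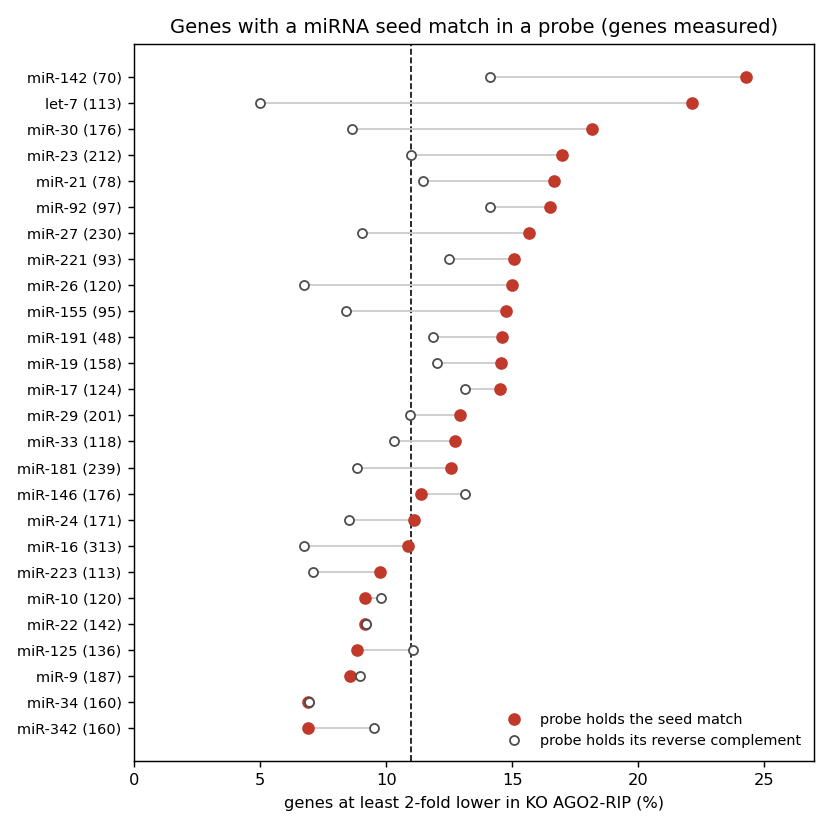
Percent of measured genes at least 2-fold lower in KO AGO2-RIP (horizontal axis) for 26 miRNA families, from genes with a probe holding the seed match and from genes with its reverse complement, with a line at the 11.0% of all genes. miR-142 and let-7 have the highest shares with the match, 24.3% and 22.1%.

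Targets of the other listed miRNAs were called lower at about the share of all genes. Pooled without the let-7 members, 84 were measured and 9 were lower, where 11.0% of all genes and 14.5% of those with a RefSeq symbol were. 1 was higher and the median was -0.39, with 58 below 0. The members past 2-fold are given as values of single genes. Of 19 measured miR-155 targets, 1 was lower, Hbp1 (4.31 in WT, 3.26 in KO), a transcriptional repressor, and the median was -0.56. A further Hbp1 probe gave 0.49, so the direction of this call depends on the probe. The JAK inhibitor Socs1 read 1.41 and 0.47. Of 17 miR-17~92 targets (median -0.51), the phosphatase Phlpp2 (-0.66, -1.80) and the NF-kB inhibitor Tnfaip3 (1.01, -0.10) were lower. Cyld, a deubiquitinase, was higher at 1.63 by 1 probe and -0.30 by another. Traf6, the ubiquitin ligase downstream of Toll-like receptors and a miR-146a target, read -0.24 and -2.18 (-1.94). The integrin Itga5 (2.54, 1.27) and the cholesterol exporter Abcg1 (4.15, 3.13) were lower too. Medians were -0.17 for 12 miR-21 targets, -0.33 for 9 miR-146a targets, -0.37 for 14 miR-223 targets and -0.24 for 7 miR-10a targets. Taken relative to the median of all genes, those for miR-21, miR-223 and miR-10a changed sign under other settings.

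The RNAs that encode the silencing machinery were read beside all genes with a RefSeq symbol, of which 14.5% were lower and 5.69% higher. Ago2 read 3.29 in WT and 3.07 in KO (-0.22), with its 3 probes from -1.15 to -0.22 and 0.81 in input. Of 12 measured Argonaute and GW182 genes 3 (25%) were lower. They were Limd1 (2.75, 0.75), a LIM protein that links AGO2 to the translation machinery, Ago1 (0.72, -0.47, -1.18), and Mov10 (5.99, 4.86, -1.13), an RNA helicase that associates with Argonautes. The list had a median of -0.36, against 0.31 in input. Of 24 deadenylation and decapping genes 4 (16.7%) were lower and 1 (4.17%) higher, shares near those of genes with a symbol. Patl1, a decapping activator, read 4.73 and 3.26, the CCR4-NOT subunits Cnot11 1.54 and 0.23 and Cnot8 1.96 and 0.71, and the decapping cofactor Dcp1a 1.80 and 0.75. Lsm1, of the ring that binds shortened tails, read -1.94 and -0.79 (1.15). None of the 12 measured miRNA biogenesis genes passed 2-fold. Their median was -0.05, and its sign relative to the median of all genes changed with the setting.

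Transcripts from which miRNAs are cut were measured in 4 cases. Mir99ahg, whose introns hold let-7c, miR-99a and miR-125b, read -1.09 in WT and 0.41 in KO (1.50), and Mir22hg, the host of miR-22, -2.05 and -0.67 (1.38). Mir17hg, the host of the miR-17~92 cluster, gave 0.66 and H19, the host of miR-675, -0.04. The first pair was thus higher in KO AGO2-RIP, from low WT levels.

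The largest differences were those of genes near background in one of the arrays. Lyz1, a lysozyme, read -0.82 in WT and 5.36 in KO (6.19 ± 0.23, 72.8-fold), with 5.81 in input. It is nearly identical to Lyz2, so the share of each in these signals is uncertain. Trip6, a LIM domain protein of focal adhesions, read -2.43 and 1.79 (4.22, 18.6-fold), with -1.10 in input. Oas3, an interferon-induced oligoadenylate synthetase, read -1.83 and 1.47 (3.31), with 1.44 in input. Lpp, a LIM protein of cell adhesions, read -1.13 and 2.15 (3.28), Mamld1 -1.06 and 2.09 (3.15) and Fntb, a farnesyltransferase subunit, -2.50 and 0.45 (2.96). Trappc5, a vesicle tethering subunit, gave 3.27 by its brightest probe and -0.27 by another, so its direction depends on the probe.

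At the low end stood Iqcb1, a ciliary protein, at 1.79 in WT and -1.53 in KO (-3.32 ± 0.25, 9.95-fold). Mblac1 (1.28, -1.97) and Prrg1 (1.22, -1.93) gave -3.25 and -3.15. Bcs1l, an assembly factor of respiratory complex III, read 1.88 and -1.16, and its probes gave -3.03 and -2.80. The mitochondrial nuclease Exog (1.34, -1.58) and Mocs3 (1.49, -1.43), of molybdenum cofactor synthesis, both gave -2.92. Clec4n, the fungal receptor Dectin-2, read 3.37 and 0.28 (-3.09), and was at least 2-fold lower in input as well. The kinase-like Trib3, of the unfolded protein response, read 1.90 and -1.06 (-2.95), with -1.87 in input.

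Where a gene has several probes, they did not always give the same call. Of 501 lower genes with a further measured probe, 237 (47.3%) had another probe at least 2-fold lower and 133 had one of the opposite sign. Of 292 higher genes, 113 (38.7%) and 96 did. Genes with all probes past 2-fold included Pgap2 (-2.32 and -2.27), of GPI anchor processing, the cAMP-responsive factor Crem (-2.68 and -1.98), Tfpi (-2.94 and -2.07), an inhibitor of coagulation, and Psenen, a subunit of gamma-secretase (7.48 in WT, 5.60 in KO, -1.88 and -1.78). On the higher side were the chemokine receptor Cxcr6 (2.11 and 2.30), the factor Nfix (1.74 and 2.03), Mrpl41 (1.23 and 1.39) and the DNA repair genes Trp53bp1 (1.18 and 1.24) and Dclre1c (1.20 and 1.92).

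A further 1706 genes were well above background on the KO array and not on the WT array, and for 545 the bound was at least 2-fold higher. For 360 of 1156 genes in the other direction it was at least 2-fold lower. A bound sets the bright signal against the lowest signal well above background on the dim array. Synb, a syncytin of cell fusion, was at least 43.7-fold higher, and was above background on 3 KO arrays and 0 WT arrays. Nanos2, of male germ cells, was at least 16.8-fold and F2rl2, a thrombin receptor, at least 14.0-fold higher. Gsta3, a glutathione transferase, was at least 16.6-fold lower, Pdia5, a disulfide isomerase, at least 15.4-fold and Rab4a, of endosome recycling, at least 12.9-fold. Ext1, of heparan sulfate synthesis, was at least 10.6-fold lower.

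Some genes also differed in the same direction in input. Over all genes, 3.48% of the lower and 3.59% of the higher ones measured in input passed 2-fold the same way there. Among all genes measured in input, 1.76% were lower and 1.02% higher. Those with RefSeq symbols numbered 49 lower and 13 higher in both fractions. Besides Clec4n and Trib3, the lower ones included Klra2 (-2.78 in AGO2-RIP, -1.83 in input) and Fam135a (-2.31 in AGO2-RIP). The higher ones included Pald1 (2.43, 1.39), the presynaptic Bsn (2.34, 1.78), the macrophage protein Cd5l (1.73, 1.00) and the neonatal Fc receptor Fcgrt (1.67, 1.20). In opposite directions, 16 were lower in AGO2-RIP and higher in input, with Arid3a, Arid3b, Gab1, Sik1, Golga1 and Vps13a among them. Another 8 were higher in AGO2-RIP and lower in input, with Trip6, Gkap1, Csrp2 and Olfm1 among them. Over all genes, 1.08% of the lower ones measured in input were higher there, and 2.07% of the higher ones were lower there, near the input shares of all genes. Lcor, a nuclear receptor corepressor, read 2.65 in WT and 2.59 in KO AGO2-RIP (-0.05, and -0.80 by a further probe). KO minus WT for Lcor was 2.40 in input and 2.29 in IgG-RIP. Apoe, which all groups lack, read -0.83 and -0.79.

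Genes of the mitochondrion were lower in part. Of 78 measured subunits of respiratory complexes I to V, 17 (21.8%, where 14.5% of all genes with a RefSeq symbol were lower) were lower, 0 were higher and 64 lay below 0, with a median of -0.51. In complex I, 8 of 36 were lower, with Ndufa7 at 6.02 in WT and 3.84 in KO (-2.18), Ndufa11 at 4.07 and 2.46 (-1.61) and Ndufa3 at 6.88 and 5.48 (-1.40). Ndufa13 read 4.16 and 5.03 (0.86). In complexes II to V, 9 of 42 were lower, among them the cytochrome oxidase subunits Cox7a1 (5.01, 3.08), Cox6a1 (6.86, 5.22) and Cox6b1 (4.41, 2.96). Input medians were -0.32 and -0.22 for these lists, and in IgG-RIP 0.59 and 0.12. Of 72 mitochondrial ribosomal proteins, 20 (27.8%) were lower, 2 were higher and the median was -0.48. Mrpl37 read 0.72 and -1.59 (-2.32), Mrpl28 1.04 and -1.11 (-2.15), Mrps6 2.12 and 0.26 (-1.86) and, on the higher side, Mrpl14 0.47 and 1.67 (1.20). Of 76 cytosolic ribosomal proteins, 2 were lower, with Rps13 (6.33, 5.19) among them, and 0 higher, with a median of -0.19 against -0.50 in input.

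Stress and p53 genes showed both directions. Of 22 measured p53 targets 4 (18.2%) were lower and 2 (9.09%) higher, near the 14.5% and 5.69% of genes with a symbol, with a median of -0.67 against 0.11 in input. The polo-like kinases Plk3 (1.59 in WT, -0.94 in KO) and Plk2 (4.18, 2.56), the growth arrest gene Gadd45a (2.53, 1.01) and the glycolysis regulator Tigar (1.53, 0.32) were lower. The ribonucleotide reductase subunit Rrm2b was at 2.71 by 1 probe and -0.25 by another, and the polymerase Polk at 1.91 and -0.48. Of 18 stress response genes 5 (27.8%) were lower and 0 higher, with Trib3, Chac1 (4.85, 2.80), which degrades glutathione, Herpud1 (3.53, 2.01), of endoplasmic reticulum stress, Nqo1 (-0.51, -1.94) and heme oxygenase Hmox1 (6.65, 5.38). A further Hmox1 probe gave 0.51. The list's median was -0.65, and -0.27 in input.

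Activation genes were lower in part, and again 14.5% of genes with a symbol were lower and 5.69% higher. Of 18 immediate early genes 5 (27.8%) were lower and 0 higher (median -0.77, and -0.07 in input), with the AP-1 members Fosb (0.91 in WT, -1.08 in KO) and Fosl2 (7.14, 5.81), Ier3 (2.56, 1.35) and Dusp1, a member of the let-7 list as well. A further Fosl2 probe gave 0.22. Of 21 inflammatory mediators 8 (38.1%) were lower and 1 (4.76%) higher, with a median of -0.80, and -0.49 in input. The chemokines Ccl2 (8.06, 6.53), Ccl7 (7.76, 6.31), Ccl12 (2.33, 1.03) and Cxcl16 (2.73, 0.78) and the cytokines Tnf (4.26, 2.64) and Tnfsf9 (6.91, 5.69) were lower, and Nfkbiz, a nuclear NF-kB regulator, was higher (-1.82, -0.14). Tnfsf9 was lower in input too, at -1.39. Of 16 interferon-stimulated genes 2 (12.5%) were lower, Irf9 (3.94, 2.35) and Cxcl10 (0.23, -0.87), and 2 (12.5%) higher, Oas3 and the RNA sensor Ddx58 (-0.85, 0.37). The antiviral genes Rsad2 (3.64, 3.69), Ifit3 (1.41, 1.27) and Cmpk2 (0.26, 0.44) differed by 0.18 or less in AGO2-RIP. In input the same 3 genes were higher in KO, at 2.23, 1.67 and 1.20.

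Lipid and cell cycle genes had calls in both directions. Of 28 genes of lipid and cholesterol handling 5 (17.9%) were lower and 1 (3.57%) higher, near the 14.5% and 5.69% of genes with a symbol, with a median of -0.10. Fabp4 read 3.94 in WT and 1.53 in KO (input -1.56), the receptor Pparg 3.24 and 1.41, the scavenger receptor Msr1 4.45 and 2.86 and Mylip, which degrades the LDL receptor, 4.38 and 2.92. Nr1h3, the oxysterol receptor LXR alpha, was higher (-1.76, -0.32). Of 44 cell cycle and replication genes 9 (20.5%) were lower and 2 (4.55%) higher, with a median of -0.65 against -0.04 in input. Ccne1 read 4.80 and 2.79 by 1 probe and gave -0.41 by another, Ccne2 -0.03 and -1.61 and the replication licensing factor Cdc6 3.17 and 1.66. The topoisomerase Top2a (-1.31, 0.39) and the checkpoint kinase Bub1b (-0.64, 0.49) were higher. None of 27 replication-dependent histone genes passed 2-fold. Their median was 0.09, and its sign relative to the median of all genes changed with the setting.

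Nuclear noncoding RNAs lay on the other side. Of 16 measured nuclear and snoRNA host RNAs, 3 were higher (against 7.07% of all genes) and 1 lower, with a median of 0.21, the only one of 32 list medians that stood above that of all genes in every setting tried. Neat1, the RNA that builds paraspeckles, read 3.12 in WT and 4.40 in KO (1.28), with 6 probes from 1.13 to 1.30 and 0.69 in input. Malat1, of nuclear speckles, read 2.69 and 3.94 (1.24), with 4 probes from 1.10 to 1.47 and 0.10 in input. Both RNAs were also bright on the IgG-RIP control arrays. There Neat1 read 4.77 in WT and 4.16 in KO (-0.61), and Malat1 4.33 and 4.11 (-0.22). How much of their AGO2-RIP signal was bound to AGO2 was not tested. Pvt1 read -1.89 and -0.10 (1.79, and 0.82 by a further probe). Gas5, a snoRNA host, read 2.33 and 2.96 (0.64), with -1.45 in input, and Snhg7 was lower (-0.82, -2.02).

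Probes for long intergenic noncoding regions pointed the same way in number. Of 4608 such regions 2446 were measured, 280 (11.4%) were higher and 112 (4.58%) lower, with a median of 0.23, against -0.02 in input and -0.17 in IgG-RIP. These shares were near those of all names without a RefSeq symbol, which include these regions, at 9.42% higher and 5.05% lower. Among all genes 7.07% were higher and 11.0% lower. The region chr16:3872469-3877048 read -2.38 in WT and 3.30 in KO (5.68). The lowest, chr8:119090566-119097735, read 1.46 and -2.18 (-3.64), with -4.77 in IgG-RIP. Olfactory receptor genes, which macrophages are not known to express at high levels, were measured for 46 of 1101, with 6 higher and 0 lower and a median of 0.37. These regions and receptors were mostly dim, and the dim bins of all genes had medians above 0 as well. In the dimmest bin 9.67% of genes were higher, and in the next 12.1%.

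**Figure D4:**
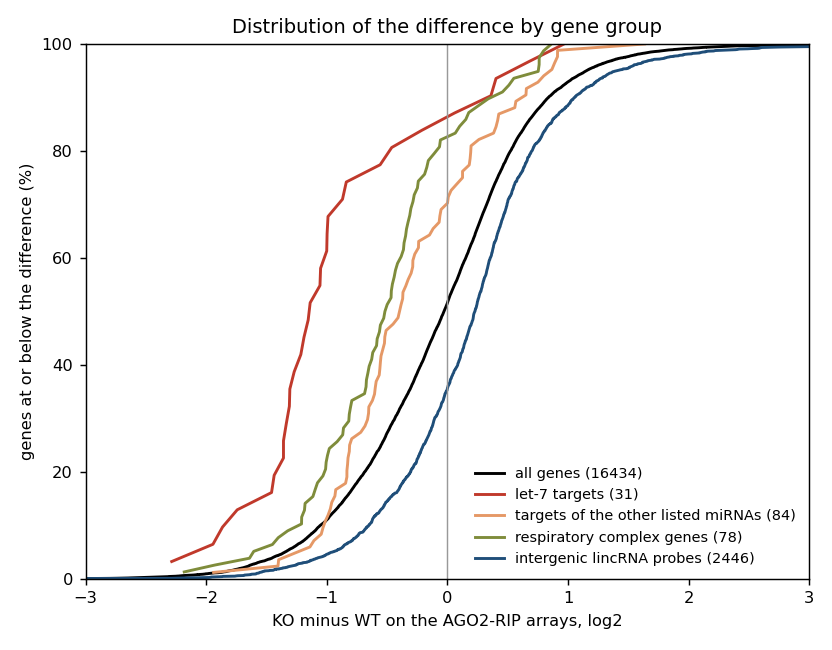
Cumulative percent of genes (vertical axis) at or below each KO minus WT difference on the AGO2-RIP arrays (log2, horizontal axis) for all 16434 genes, 31 let-7 targets, 84 targets of the other listed miRNAs, 78 respiratory complex genes and 2446 intergenic lincRNA probes, 1 array per genotype. The let-7 curve lies farthest left with a median of -1.14, followed by the respiratory genes at -0.51 and the other targets at -0.39, while the lincRNA curve lies right of all genes with a median of 0.23.

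**Figure D5:**
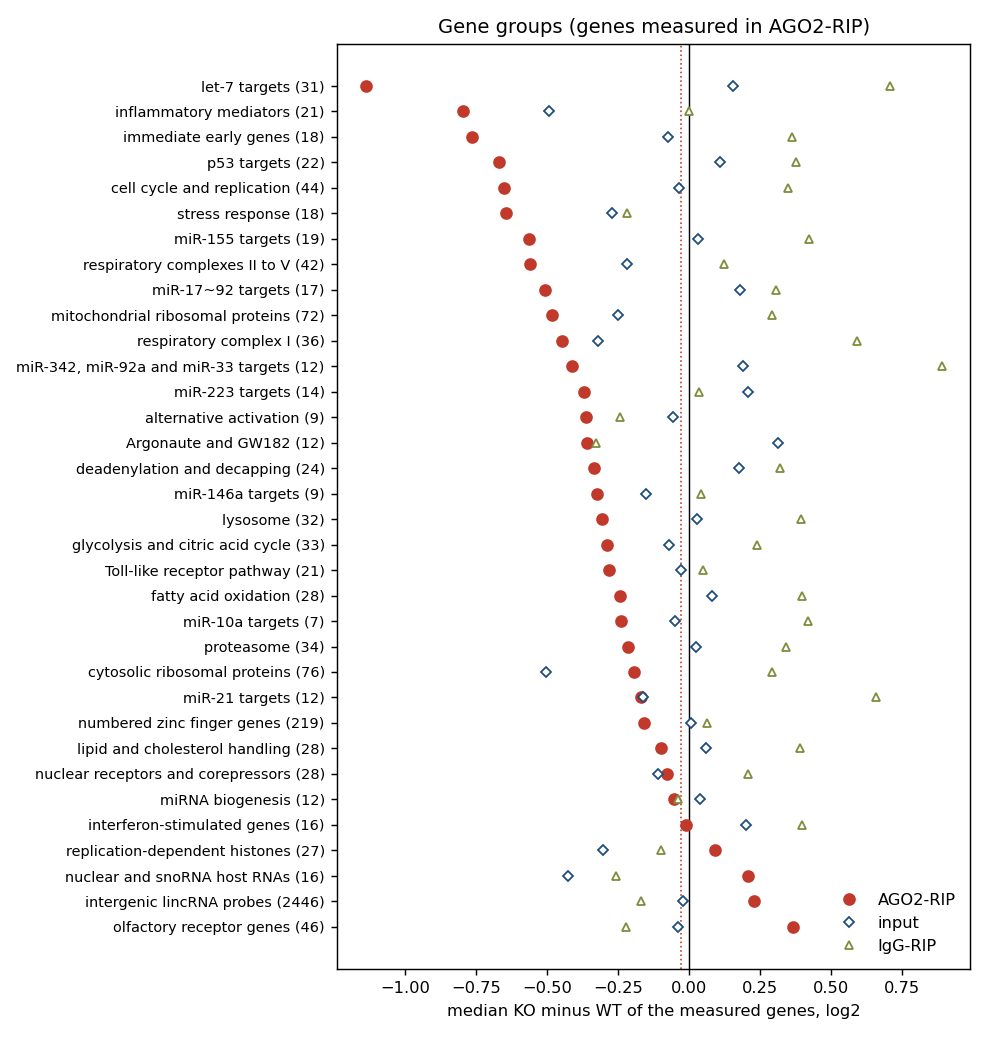
Median KO minus WT (log2, horizontal axis) of gene lists in each of the fractions, 1 array per genotype and fraction, with the median of all AGO2-RIP genes at -0.03. The let-7 targets have the lowest AGO2-RIP median, -1.14, with 0.16 in input and 0.71 in IgG-RIP, and the nuclear and snoRNA host RNAs lie at 0.21.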

How the data were processed

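RNA of the 6 samples was hybridised to Agilent 1-colour arrays with 60-base probes designed on mm9, all on 1 slide and in 1 scan. Spot intensity was extracted with Agilent Feature Extraction 10.7.3.1, per the file headers, and the deposited processed intensity had been background-subtracted by that software. Here it was put on the log2 scale after division by the 75th percentile of the array's 59305 spots that are no controls. Probes with outlier spots were left out (54 lost, 55627 kept), spots of a probe were averaged, and the measured probe with the highest mean signal stood for a gene. Probe names were updated through RefSeq GRCm38.p6, with 27715 probes matched by accession, 3347 by symbol, 312 by synonym and 46 in another letter case, and the file's name was kept for 24207.

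With 1 array a group no test was made, and a gene is called higher or lower past 2-fold. The ± of a difference is the deposited error estimate of the 2 processed signals, and the SD of repeated spots within an array was 0.149 to 0.189. Genes were named as the 10 most extreme each way, the 10 each way whose probes all passed 2-fold, the 5 largest bounds each way, 4 fixed genes, and the 3 ends of each list. Let-7 members, genes past 2-fold in a list and genes with seed matches were named beyond that after their values were seen, as were the 26 miRNA families. The members and lists were chosen with earlier results of these data known. Some genes that these rules name are not reported here. Alternatives in background correction, scaling, normalization, filters, probe choice and sex chromosomes were planned, and a correction for probe GC content was added after seeing the data. The scripts were tested on simulated data and ran under R 4.3.3 (limma 3.58.1) and Python 3.11.15 (pandas 2.3.3, statsmodels 0.14.6, numpy 2.4.6).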

Additional observations from a re-analysis of the deposited data

Results flagged for a closer look

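Several values went one way in AGO2-RIP and the other way in another fraction. Each rests on 1 array per genotype, and the difference between fractions was not tested. The let-7 targets had a median KO minus WT of -1.14 in AGO2-RIP, 0.16 in input and 0.71 in IgG-RIP. Arid3a was at -1.14 in AGO2-RIP and 1.20 in input. Arid3b was at -1.15 in AGO2-RIP, 1.72 in input and 2.04 in IgG-RIP. The let-7 list members Ccnd2 (at the 2-fold threshold in AGO2-RIP, 1.37 in IgG-RIP), Cdc34 (-1.06, 2.01), Limd2 (-1.21, 1.59) and Plagl2 (-1.05, 1.45) were lower in AGO2-RIP and higher in IgG-RIP. Trip6 was at 4.22 in AGO2-RIP and -1.10 in input.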

How the results depend on the processing

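No paired analysis was possible because each group has 1 array, and no array could be left out for the same reason. The 1162 higher and 1810 lower genes became 345 and 999 with normexp background correction, 3848 and 3673 with no filter on dim probes, and about 2.8e+02 and 987 among genes brighter than the median. The higher count was 737 with arrays centred on their median and 590 with probes that passed the background on all 6. Of all calls, those higher in KO ran from 21.6% to 51.2%, with 47.9% after quantile normalization and 45.8% after loess. The let-7 list had 0 higher members in each of these settings. Its lower members numbered 12 with quantile normalization and 12 with loess, against 19, and its median relative to all genes was -1.11, and -0.88 among genes brighter than the median. Of 32 list medians relative to all genes, 22 kept their sign in every setting. Those for miR-21, miR-223 and miR-10a targets, miRNA biogenesis, interferon-stimulated genes, cytosolic ribosomal proteins, histones, the proteasome, nuclear receptors and macrophage markers did not. Among the genes named by rule, Ly6c1 went from -2.14 to 0.15 with probes above background on all 6 arrays and Olfm1 from 1.07 to -0.040 with the median of its probes. For named genes past 2-fold, 1505 of 1633 values under the alternatives stayed past it. Dim probes limit the depth: 46.3% of spots on KO AGO2-RIP and 44.6% on WT AGO2-RIP were well above background.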

Other observations

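Groups not described above had medians from -0.36 to -0.08, where genes with a RefSeq symbol had -0.17. Among genes with a symbol 14.5% were lower and 5.69% higher. Of 32 lysosomal genes 4 were lower and 1 higher in KO AGO2-RIP (median -0.31), of 34 proteasome genes 4 and 2 (median -0.21, a sign that changed with the setting), of 33 genes of glycolysis and the citric acid cycle 2 and 2 (median -0.29) and of 28 genes of fatty acid oxidation 3 and 1 (median -0.24). Of 219 numbered zinc finger genes 25 (11.4%) were lower and 16 (7.31%) higher (median -0.16). Of 21 genes of the Toll-like receptor pathway 2 (9.52%) were lower and 1 (4.76%) higher (median -0.28). Of 9 alternative activation genes 2 (22.2%) were lower and 0 higher (median -0.36). Among 28 nuclear receptors and corepressors 4 were lower and 3 higher, with a median of -0.08 that changed sign with the setting.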
